A study of Mus musculus with 401 samples.

Results

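Hyperovulation was compared between oocytes and the cumulus cells that had surrounded them, gene by gene and over all genes, as the change without hyperovulation in cumulus cells minus the change without hyperovulation in oocytes. The libraries were chosen by their labels alone: all oocyte and cumulus libraries of the second sample set from mice at 2 months, with or without hyperovulation. Of the 401 libraries of the series, these are 24 of oocytes and 24 of cumulus cells with hyperovulation and 32 of oocytes and 32 of cumulus cells without it. They come from 56 oocyte–cumulus complexes of 13 mice of the B6D2F1 (C57BL/6 x DBA/2) strain, all fed ad libitum (AL diet). The 24 complexes with hyperovulation came from 5 mice (4 complexes each, and 8 from mouse 2mo34) and the 32 without it from 8 mice (4 each). Each complex gave a library of its single oocyte and a library of a pool of its cumulus cells, both made by RamDA-seq, a full-length total RNA method. Per the study's methods, hyperovulation was induced with equine chorionic gonadotropin (eCG) or with CARD HyperOva, and which mouse received which agent is not given in the sources used here. Complexes were taken from fully grown follicles, and oocytes were at the germinal vesicle stage.

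Cumulus cells are the granulosa cells closest to the oocyte and reach it through gap junctions. They carry receptors for follicle-stimulating hormone, which eCG mimics, and they supply the oocyte with pyruvate from glycolysis and with cholesterol, both of which the oocyte makes poorly on its own. A fully grown mouse oocyte is largely silent in transcription and draws on stored mRNA, while cumulus cells go on transcribing and dividing.

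Cumulus libraries held a median of 854936 counts with hyperovulation (510029 to 1147286) and 863415 without it (624462 to 1127709), and oocyte libraries 2118731 (1719013 to 2433019) and 1986202 (1645231 to 2201967). The markers followed the labelled cell types. The summed level of 13 oocyte markers had a median of 23500 and 23900 CPM (counts scaled to a common library total) in oocyte libraries with and without hyperovulation, against 3.19 and 6.87 CPM in cumulus libraries, where the zona pellucida genes Zp1, Zp2 and Zp3 had a median of 0. The 12 cumulus and granulosa markers summed to a median of 10500 and 6810 CPM in cumulus libraries and to 356 and 348 CPM in oocyte libraries, mostly from Bmpr1b and Nr5a2. In cumulus libraries the markers did not move together. The largest shift was in Inhbb, with a median of 4030 CPM with and 608 CPM without hyperovulation. Medians of Foxl2, Fshr, Nr5a2, Hsd17b1 and Fst were also lower without it. Those of Inha (3030 and 3320 CPM), Amh (31.1 and 173 CPM), Amhr2, Kitl, Slc38a3 and Bmpr1b were higher. Among 10 library measures (totals, genes detected, mitochondrial share and 7 marker sums), the interaction had the smallest p for the theca marker sum (0.546 on the log2 scale, two-sided exact permutation p over mice = 0.0186) and the cumulus and granulosa marker sum (−0.429, exact p = 0.0225), and after Benjamini-Hochberg adjustment over the 10 both had 0.113. The theca sum was almost all Ptch1, with Insl3 at a median of 0 in each group, and the part of these shifts in the results below was not tested. The libraries carry the label prefixes B1 or B2, read here as plates, each with mice of both conditions. Since these are bulk pools, fewer cells of a type and less RNA per cell cannot be told apart.

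The change without hyperovulation was larger in cumulus cells than in oocytes. Over 7273 genes expressed at similar levels in both cell types (shared genes: a mean of at least 5 CPM in each and within 8-fold of each other), the root mean square change on the log2 scale was 0.305 in cumulus cells and 0.0845 in oocytes. The difference of 0.22 had a two-sided exact permutation p of 0.0264 over the 1287 ways to assign 5 of 13 mice, and 0.0152 when mice were exchanged only within a plate. Without mouse 2mo1, 2mo2, 2mo34, 2mo36 or 2moNoH8 the exact p lay between 0.0566 and 0.0848. With oocyte counts thinned to the cumulus totals of each mouse, the difference was 0.192 (two-sided exact permutation p = 0.0389). Both root mean squares include the spread between mice and counting noise. The difference can therefore lie above 0 without any response, which the permutation over mice takes into account. In cumulus cells 632 of the shared genes differed by more than 0.5 on the log2 scale, and in oocytes 6 did. These numbers of genes include the same noise. Over all 17966 genes tested with edgeR on counts summed per mouse, 206 (1.15%) changed in cumulus cells at a false discovery rate of 5%. In oocytes edgeR called 0 genes (0%), with 757 (4.21%) at an unadjusted p under 0.05. It called 6 with oocytes counted as separate samples, although oocytes of the same mouse are not replicates of a condition.

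The precision differed between the cell types. The median standard error of a shared gene's change was 0.168 in cumulus cells and 0.0757 in oocytes. For 7125 of the 7273 shared genes, the 95% interval of the oocyte change lay within 0.5 on the log2 scale on either side of 0, against 2971 in cumulus cells. Across shared genes, the changes in the cell types correlated with a Pearson r of 0.0192 and a Spearman rho of 0.0464, as a description over genes, which are not independent replicates. The shared gene with the smallest unadjusted p in oocytes was Tpx2, a spindle assembly factor, at 0.20 ± 0.047 (SE, edgeR adjusted p = 1).

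**Figure D1:**
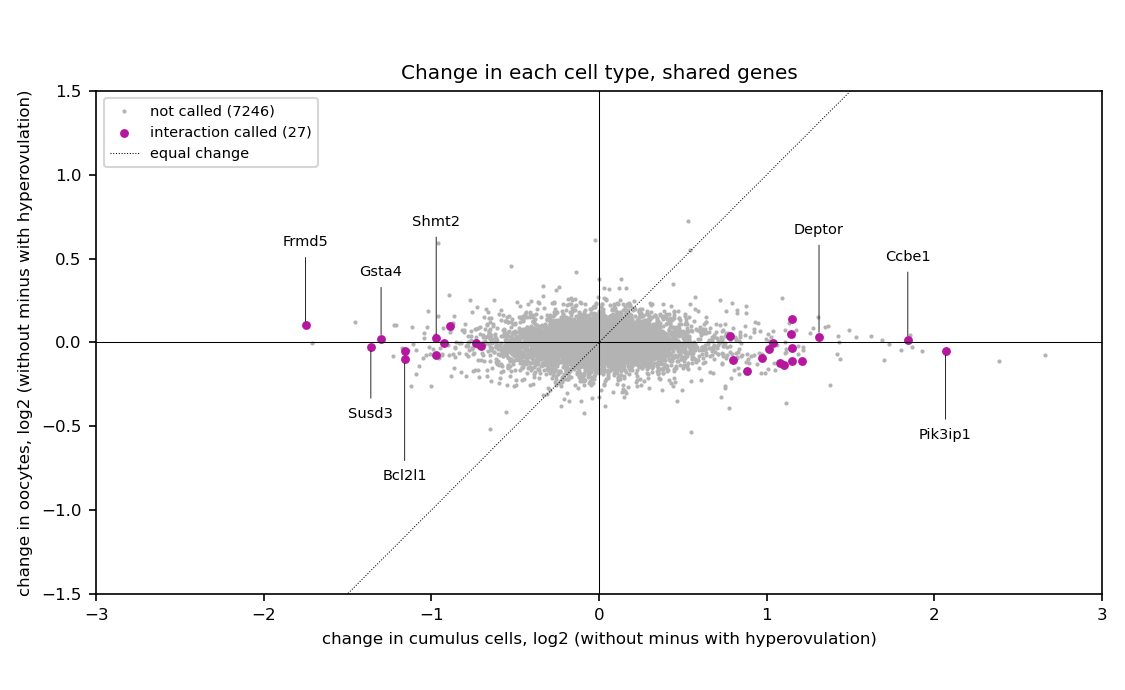
Each point is one of 7273 shared genes, with its change in cumulus cells on the x axis and in oocytes on the y axis (log2, without minus with hyperovulation, both axes at the same scale). The 27 genes called in the interaction lie along the horizontal line, with oocyte changes between −0.17 and 0.14, and the dotted diagonal marks equal change.

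The interaction passed a false discovery rate of 5% for 61 genes (0.34% of those tested), 35 in the positive direction (0.195%; higher in cumulus cells without hyperovulation, relative to oocytes) and 26 in the negative direction (0.145%). With the plate of each cell type in the fit, the count was 155 (0.863%), 67 positive (0.373%) and 88 negative (0.49%), and all 61 genes were among them. Within a plate alone, with 7 or 6 mice, 9 genes passed on B1 and 9 on B2, and all 61 genes had the same sign on both. Without the mouse as a block, the count was 117, and with the cell types normalised together it was 70, of which 31 were positive. Left-out mice moved it from 16 (without 2mo34) to 113 (without 2moNoH7), with the same sign for all 61 genes each time. For all 61, the cumulus change was larger than the oocyte change, and 52 of the 61 were among the 206 genes called in cumulus cells (25.2% of the latter and 85.2% of the former). An oocyte change with an unadjusted p under 0.05 was seen for 7 of the 61, against 4.21% of all genes tested. The interaction contains the oocyte change, so these 7 were in part selected for it. In cumulus cells the values of the mice did not overlap between conditions for 43 of the 61 genes, against 1.37% of all genes tested, and in oocytes for 0 of the 61, against 0.122%. The 61 genes were selected on the interaction in these same mice. Their signs and overlaps therefore describe the calls and are no separate evidence for them.

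Of the 61 genes, 27 were shared genes (0.371% of these), and those named here are among the 8 largest of them in each direction that have a gene name. Those with positive interactions come first. Pik3ip1, an inhibitor of PI3 kinase, stood at 2.91, 2.43, 4.78, 7.04 and 3.73 CPM in cumulus cells of the 5 mice with hyperovulation, and at 9.45, 16.3 and 29.7 CPM (lowest, median, highest) in those without it. In oocytes it stood between 9.6 and 14.4 CPM with and between 7.81 and 16.5 CPM without hyperovulation. The cumulus groups did not overlap and the oocyte groups did, and the interaction was 2.10 ± 0.36 (SE, edgeR adjusted p = 0.0132).

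Deptor, which binds and inhibits the kinase mTOR, was higher in oocytes than in cumulus cells in both conditions. It measured 16.5, 21.3, 19.1, 24.5 and 17.5 CPM in cumulus cells with hyperovulation, and 30.4, 54.8 and 68.5 CPM (lowest, median, highest) without it. Its oocyte levels ran from 194 to 235 CPM with and from 184 to 237 CPM without hyperovulation. The interaction was 1.25 ± 0.21 (SE, edgeR adjusted p = 0.0124), with an oocyte change of 0.04 ± 0.058.

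Ccbe1, a secreted protein of lymphatic vessel growth, had an interaction of 1.79 ± 0.35. In cumulus cells it rose from 9.41 ± 3.41 CPM (SD, n = 5 mice) to 34 ± 13.2 CPM (SD, n = 8), and in oocytes it stood at 11.5 CPM in both conditions. Cln3, a lysosomal membrane protein, rose in cumulus cells from 15.6 ± 4.18 to 33.7 ± 5.97 CPM, Adarb1, an enzyme that edits adenosine to inosine in RNA, from 27.8 ± 3.99 to 62.0 ± 15.1 CPM, and Tns3, a focal adhesion protein, from 30.6 ± 6.83 to 64.6 ± 25.9 CPM. Derl3, a component of endoplasmic reticulum-associated degradation, rose from 42.6 ± 14.2 to 94.8 ± 23.3 CPM. None of these genes had an oocyte change larger than 0.14 in size on the log2 scale, and the cumulus values of the mice did not overlap between conditions for any of them.

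Among the genes that were lower in cumulus cells without hyperovulation, Frmd5, a FERM domain protein of cell junctions, had the smallest p of all genes. Its cumulus levels were 63.6, 98.3, 97.5, 73.5 and 84.0 CPM in the mice with hyperovulation, and 13.8, 25.1 and 39 CPM (lowest, median, highest) in those without it. In oocytes it ranged from 15.9 to 20.9 CPM with and from 16.9 to 20.7 CPM without hyperovulation. Cumulus levels lay above the oocyte levels in each mouse with hyperovulation and on both sides of them without it, and the interaction was −1.91 ± 0.25 (SE, edgeR adjusted p = 0.00591).

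Bcl2l1, which encodes the survival protein Bcl-xL, measured 32.9, 28, 37.8, 33.6 and 28.1 CPM in cumulus cells with hyperovulation. Without it, the lowest, median and highest values were 9.46, 12.7 and 24.3 CPM, below each mouse with hyperovulation. Oocytes held it at 91.1 to 104 CPM and 85.9 to 93.2 CPM, and the interaction was −1.08 ± 0.18 (edgeR adjusted p = 0.0124). The oocyte change of −0.10 ± 0.048 had an unadjusted p of 0.0486.

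Susd3, a sushi domain protein, fell in cumulus cells from 70.4 ± 18.1 to 27.4 ± 10.7 CPM and Gsta4, a glutathione transferase that clears products of lipid peroxidation, from 17.2 ± 5.1 to 6.95 ± 1.76 CPM. Shmt2, the mitochondrial serine hydroxymethyltransferase of one-carbon metabolism, fell from 135 ± 42.1 to 68.9 ± 20.1 CPM, and Mrtfb, a coactivator of serum response factor, from 272 ± 49 to 144 ± 27.6 CPM. Uevld, a protein with ubiquitin-conjugating and lactate dehydrogenase domains, fell from 48.2 ± 7.2 to 26 ± 7.3 CPM. Their oocyte changes lay between −0.03 and 0.10 on the log2 scale. The antisense gene Slain1os fell from 9.72 ± 1.68 to 4.38 ± 1.21 CPM together with Slain1, which it overlaps on chromosome 14, and these cannot be told apart without strand. Counts were not whole, which may mark reads shared with another place or gene, in 46.4% of the libraries with a count for Deptor, 51.8% for Mrtfb and 50% for Uevld.

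**Figure D2:**
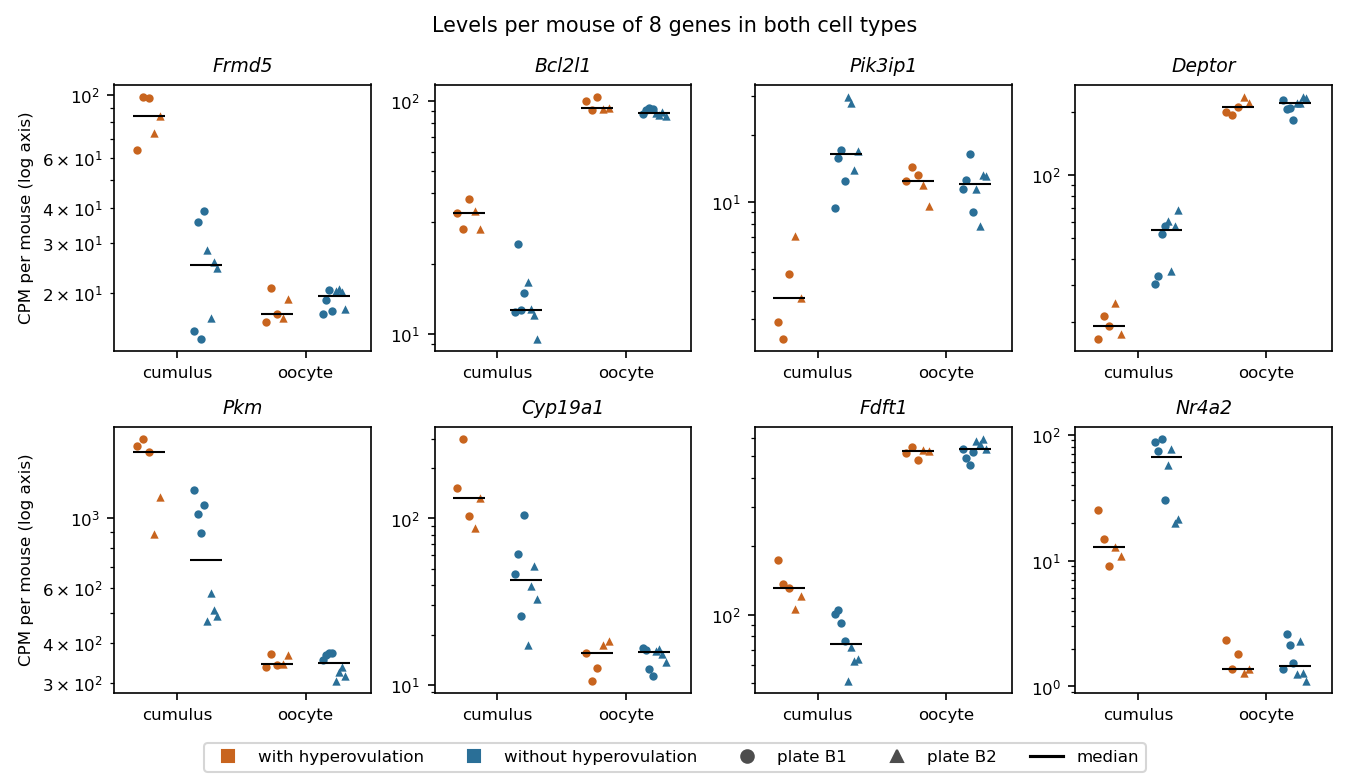
CPM of 8 genes in each of 13 mice on log axes, in cumulus cells (left pair in each panel) and oocytes (right pair), with hyperovulation in orange and without in blue, circles for plate B1, triangles for plate B2 and a line at the median. Cumulus levels of Frmd5 and Bcl2l1 were lower and of Pik3ip1 and Deptor higher in each mouse without hyperovulation than in each mouse with it, while the oocyte groups overlapped.

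The gene lists here and below were chosen with earlier results of these data known, so their medians and shares are a description. Interactions of the glycolysis genes lay on one side of 0. All 15 listed members had an interaction below 0, with a median of −0.88 against 0.00 over all genes tested, made of a median change of −0.74 in cumulus cells and 0.00 in oocytes. The one member called at a false discovery rate of 5% was Pgk1, phosphoglycerate kinase, which fell with an interaction of −1.04 (edgeR adjusted p = 0.0124). Over all genes tested, 0.145% were called in that direction. At an unadjusted p under 0.05, 12 of the 15 were negative, against 6.16% of all genes, and with plate in the fit 9 of the 15 were called, against 0.49% of all genes in that direction. The median was −0.75 on plate B1 alone and −0.75 on plate B2 alone.

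Pgk1 stood at 237, 250, 217, 157 and 212 CPM in cumulus cells with hyperovulation and at 86.5, 110 and 158 CPM (lowest, median, highest) without it, so the highest mouse without overlapped the lowest mouse with hyperovulation. In oocytes it was between 8.26 and 12.5 CPM and between 9.8 and 14.3 CPM. Pkm and Aldoa, the pyruvate kinase and aldolase genes, were the shared members with the highest levels. Pkm measured 1690, 1780, 1610, 888 and 1160 CPM in cumulus cells with hyperovulation and 472, 734 and 1220 CPM without it, with oocyte levels of 336 to 369 CPM and 303 to 373 CPM. The interactions were −0.88 ± 0.23 for Pkm (edgeR adjusted p = 0.102, and 0.00548 with plate) and −0.88 ± 0.22 for Aldoa (0.083, and 0.00662 with plate). The lower values of Pkm with hyperovulation came from the 2 mice on plate B2. Members called with plate alone were the glucose transporter Slc2a1, the phosphofructokinases Pfkp and Pfkl, Aldoa, Tpi1, Pgam1, Eno1 and Pkm, with interactions from −0.94 to −0.78. Counts were not whole in 94.6% of libraries with a count for Pgk1, 97.3% for Pkm and 97.3% for Eno1, genes with many processed pseudogenes, so reads may have been split with these.

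Of 22 members of cholesterol synthesis and uptake, 21 had an interaction below 0, with a median of −0.71 (−0.61 in cumulus cells and 0.04 in oocytes), and 13 were negative at an unadjusted p under 0.05, against 6.16% of all genes. Of these, 2 were called, against 0.145% of all genes in that direction. With plate in the fit 5 were called, against 0.49%, among them Fdft1, the squalene synthase, and Nsdhl and Dhcr7, enzymes of later steps. The median was −0.43 on plate B1 and −0.91 on plate B2.

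Fdft1 was higher in oocytes than in cumulus cells: it measured 175, 137, 131, 106 and 121 CPM in cumulus cells with hyperovulation and 50.7, 74.2 and 105 CPM without it, which do not overlap, while in oocytes it ranged from 483 to 552 CPM and from 456 to 599 CPM. The interaction of Fdft1 was −0.83 (edgeR adjusted p = 0.0837, and 0.013 with plate). Hmgcs1, the HMG-CoA synthase at the start of the pathway, had −0.73 ± 0.24 (adjusted p = 0.205) and Insig1, which retains the sterol sensor in the endoplasmic reticulum, −0.45 ± 0.19 (0.345).

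Genes of mitosis had small interactions in one direction. All 24 members were below 0, with a median of −0.48 (−0.41 in cumulus cells and 0.03 in oocytes), 19 were negative at an unadjusted p under 0.05, against 6.16% of all genes, and 0 were called. The median was −0.3 on plate B1 and −0.57 on plate B2. With plate in the fit, Bub1, a spindle checkpoint kinase, and Tpx2 were called, against 0.49% of all genes in that direction. Tpx2 combined a cumulus change of −0.58 with the oocyte change of 0.20 named above, and its interaction was −0.81 (edgeR adjusted p = 0.0527). Its oocyte levels of 162 to 177 CPM with and 177 to 206 CPM without hyperovulation did not overlap before rounding. This held in oocytes for 0.122% of all genes tested. Tpx2 was picked for its small oocyte p, so the lack of overlap is no separate evidence. Ccnb1, cyclin B1, had an interaction of −0.52 ± 0.22 and Prc1, a midzone protein, −0.39 ± 0.16, neither called. The 38 members of DNA replication had a median of −0.24, which was −0.05 on plate B1 and −0.43 on plate B2. Of these members, 6 were negative at an unadjusted p under 0.05, against the same 6.16%, and 0 were called. Only Rrm2, the ribonucleotide reductase subunit, was called with plate (−0.63 without it), against 0.49% of all genes in that direction. Mcm2 and Mcm5 of the replicative helicase had interactions of −0.53 ± 0.19 and −0.37 ± 0.19.

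The immediate early genes and the unfolded protein and integrated stress response each had a member called in the positive direction. Of 26 immediate early genes, 7 were positive at an unadjusted p under 0.05, against 5.8% of all genes. The list had a median of 0.25, which was 0.11 on plate B1 and 0.76 on plate B2. Nr4a2, an orphan nuclear receptor, was called, against 0.195% of all genes in that direction. It stood at 25.2, 14.9, 9.1, 12.8 and 10.9 CPM in cumulus cells with hyperovulation. Without hyperovulation it stood there at 19.8, 65.9 and 92.8 CPM (lowest, median, highest), so the cumulus groups overlapped. In oocytes it was at most 2.63 CPM in any group. The interaction of Nr4a2 was 1.94 (edgeR adjusted p = 0.0128). The antiproliferative gene Btg2 was called with plate alone (0.95 without it), where 0.373% of all genes were called in that direction. Dusp1, a MAP kinase phosphatase and the only shared member, had −0.91 ± 0.60.

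In the stress response list, 17 of 21 members were above 0 with a median of 0.23, 6 were positive at an unadjusted p under 0.05, against 5.8% of all genes, and Dnajb9, a chaperone cofactor of the endoplasmic reticulum, was called at 0.90, against 0.195% of all genes in that direction. Dnajb9 ranged from 33.3 to 45.4 CPM in cumulus cells with hyperovulation and from 33.5 to 78.4 CPM without it. In oocytes it was lower, with 4.66 to 6.73 CPM and 2.93 to 6.19 CPM, and part of the interaction came from an oocyte change of −0.35. Asns, asparagine synthetase, and Ddit3, the transcription factor CHOP, both targets of ATF4, had interactions of 1.52 (edgeR adjusted p = 0.0652) and 1.02 (0.0941). Canx and Ern1, a lectin chaperone and a sensor of unfolded proteins, had interactions of 0.23 ± 0.15 and 0.08 ± 0.18.

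Of 20 receptors and follicle hormones and 9 steroid synthesis genes, edgeR called 0 in the interaction without plate. At an unadjusted p under 0.05, 1 of the former was positive and 4 were negative, and 2 of the latter were negative. Over all genes tested, 5.8% were positive and 6.16% negative at this level. Cyp19a1, the aromatase that makes oestradiol, measured 152, 302, 104, 87.1 and 133 CPM in cumulus cells with hyperovulation and 17.3, 42.8 and 105 CPM without it. In oocytes it ranged from 10.5 to 18.3 CPM and from 11.3 to 16.7 CPM. The cumulus groups overlapped through single mice, and the interaction was −1.71 ± 0.41 (edgeR adjusted p = 0.0775, and 0.0458 with plate). The other shared steroid gene of high level, Hsd17b7, had −0.38 ± 0.24. Of the receptors and follicle hormones 17 were below 0, with a median of −0.41 that was −1.3 on plate B1 and 0.85 on plate B2. The oestrogen receptors Esr1 and Esr2, both shared, had interactions of −0.42 ± 0.16 and 0.34 ± 0.16.

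For genes that oocytes hold only in traces, the interaction could be small although the cumulus change was large. Slc38a3, an amino acid transporter that oocytes induce in cumulus cells, had a cumulus change of 2.16 and an oocyte change of 2.09, where its oocyte level was 0.149% of the cumulus level, and the interaction was 0.17. For Amh the changes were 0.93 and 1.58 at an oocyte level of 0.647% of the cumulus level, with an interaction of −0.39. For Inhbb, the inhibin beta B subunit, they were −1.60 and −0.50 at 0.195%. Its interaction of −1.1 was not small, and it was not called (edgeR adjusted p = 0.505). None of the 12 cumulus and granulosa markers was called in the interaction, nor was any tested marker of oocytes, theca, luteal cells, leukocytes, endothelium or red blood cells, where the one shared gene was Prlr, the prolactin receptor, at 0.01 ± 0.24. Whether these traces are oocyte transcripts or carried-over cumulus RNA was not tested.

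Several lists gave no call in either direction, also with plate in the fit. These were the 78 cytoplasmic ribosomal protein genes (median 0.08, with Rpl4 at 0.22 ± 0.18), the 13 mitochondrially encoded mRNAs (−0.01, and −0.51 on plate B1 against 0.47 on plate B2), and the 22 genes of oocyte-secreted factors and TGF-beta signalling (−0.04, with the receptors Bmpr2 at −0.23 ± 0.22 and Bmpr1b at 0.19 ± 0.15). The 19 gap junction and cyclic nucleotide genes had a median of −0.03, with Gnas at −0.05 ± 0.12 and Prkar1a at −0.03 ± 0.10. Of 18 genes of cumulus expansion, 9 were expressed enough to be tested, with Egfr at −0.20 ± 0.20 and Rgs2 at 0.04 ± 0.21. The 31 proteasome subunits had a median of −0.17, and Psmd2 had −0.24 ± 0.11. Psma2 was called with plate alone (−0.41 ± 0.14 without it), where 0.49% of all genes were called in that direction. In the list of apoptosis and p53, Bcl2l1 was the only member called among 24, against 0.145% of all genes in that direction. Foxo1 and Foxo3 had −0.60 ± 0.25 and 0.28 ± 0.19.

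**Figure D3:**
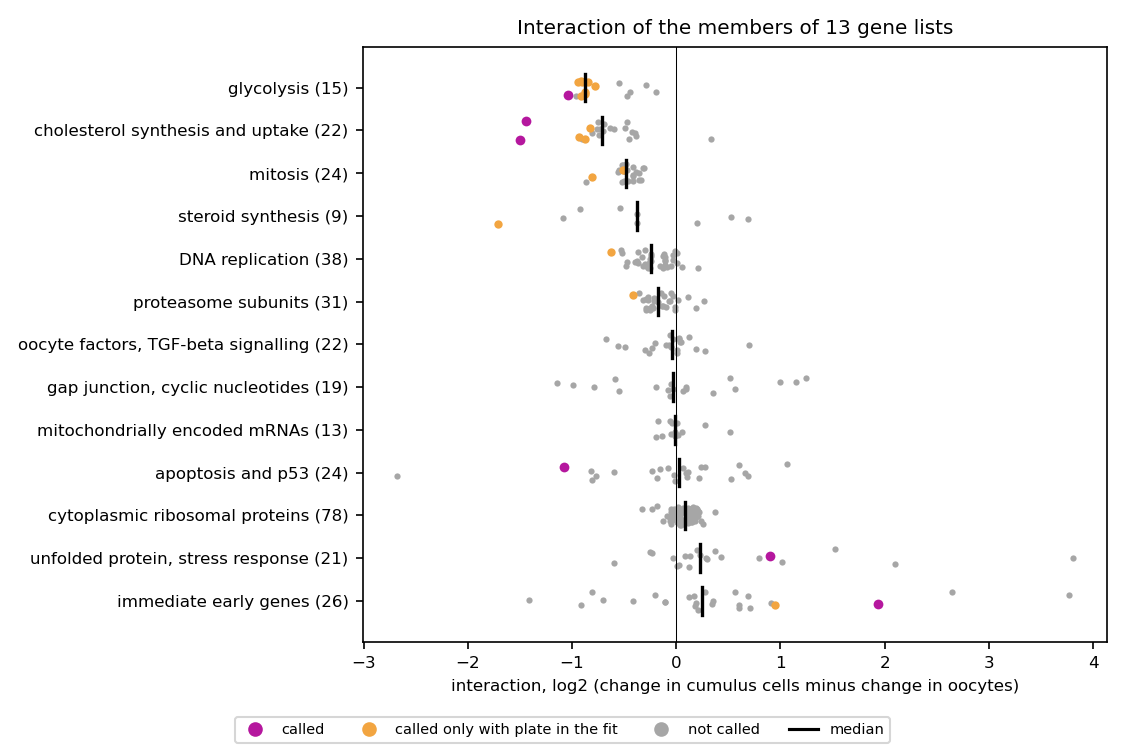
Each point is a member of one of 13 gene lists (number tested in parentheses), placed by its interaction on the log2 scale, with a black bar at the list's median, purple for genes called and orange for genes called only with plate in the fit. Glycolysis, cholesterol synthesis and mitosis sit left of 0, with medians of −0.88, −0.71 and −0.48, and ribosomal proteins and mitochondrial mRNAs lie around 0.

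The first component of the cumulus minus oocyte profiles of the mice, over shared genes, held 26.2% of the variance. Scores of the 5 mice with hyperovulation were −19.3, −9.83, −19.8, −4.04 and −8.2, and those of the 8 mice without it ran from −15.6 to 33.4. Mice 2moNoH6 and 2moNoH7 lay among the mice with hyperovulation and 2moNoH12 and 2moNoH13 lay farthest from them. The mean difference was 19.9 (two-sided exact permutation p = 0.0319, and 0.0676 adjusted over 3 components). The second component (18.8%) had a difference of 7.75 (exact p = 0.362) and the third (12.9%) one of 13.3 (exact p = 0.0451, adjusted 0.0676). None of the 3 passed after adjustment.

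**Figure D4:**
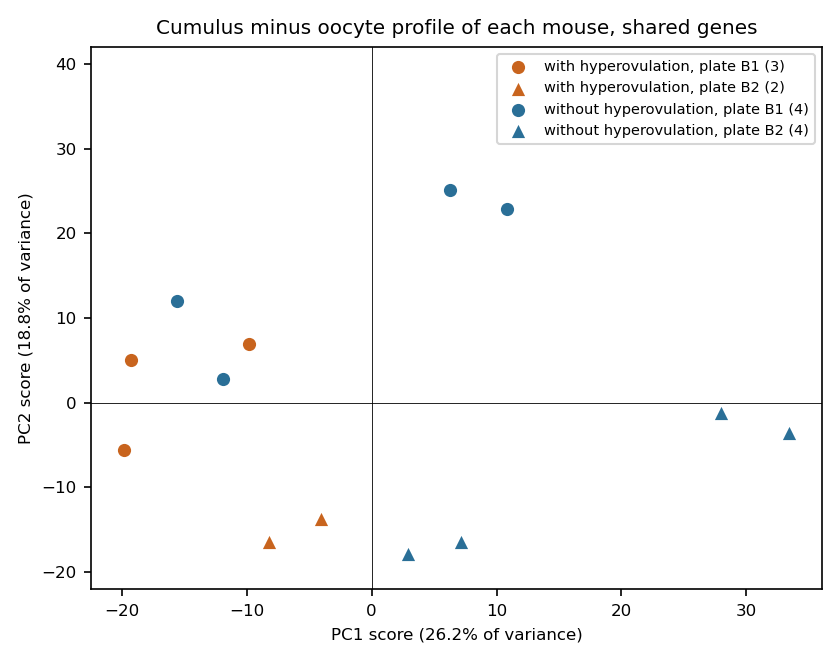
Scores of 13 mice on the first (x axis) and second (y axis) component of the cumulus minus oocyte difference in log2 CPM over shared genes, with hyperovulation in orange, without in blue, circles for plate B1 and triangles for plate B2. On each plate the mice without hyperovulation reach farther to the right than those with it, and on B1 mice 2moNoH6 and 2moNoH7 lie among those with hyperovulation.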

How the data were processed

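Per the study's methods, the authors used Fastq-mcf for trimming, HISAT2 2.0.5 for alignment to GRCm38 and featureCounts 1.5.1 for assignment to GENCODE vM15 annotation, with multi-mapped reads counted. The deposited expected count values (42349 genes, 35.2% of nonzero values not whole) were rounded in each library and then summed per mouse and cell type. How the reads behind values that are not whole were divided is not given in the sources used here. Symbols and GRCm38 coordinates came from GENCODE vM21. The deposited RPKM values and the first sample set were not used here. In R 4.3.3, edgeR 4.0.16 (TMM within each cell type, quasi-likelihood test, mouse as block, Benjamini-Hochberg adjustment) tested those genes that 5 or more libraries of each cell type had counts for. Both libraries of a complex came from one mouse, which gives the pairing; correlations of their deviations had a median of 0.175 (0.0376 to 0.238). Scripts were tested on simulated data. Named genes were the 8 largest shared calls in each direction and, per list, shared calls or the 2 shared members of highest level; genes outside this rule, such as Pgk1, Fdft1, Nr4a2, Dnajb9, Asns, Ddit3 and Tpx2, were picked after their values were seen. Some genes that the rule or a count would name are not reported here. Members and lists were chosen with earlier results of these data known. Alternatives were DESeq2 1.42.0, limma 3.58.1 on log2 CPM (prior count 2), other scalings and filters, plates and each mouse left out.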

Additional observations from a re-analysis of the deposited data

Results flagged for a closer look

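The change without hyperovulation differed between cumulus cells and oocytes for 61 genes by the test of the difference itself, and the size of the change over shared genes differed by 0.22 (cumulus minus oocyte, log2). Among the named genes the interactions so flagged were 2.10 for Pik3ip1, 1.79 for Ccbe1, 1.25 for Deptor, 1.24 for Cln3, 1.17 for Tns3, 1.15 for Adarb1 and 1.11 for Derl3. In the negative direction they were −1.91 for Frmd5, −1.37 for Susd3, −1.31 for Gsta4, −1.14 for Slain1os, −1.08 for Bcl2l1, −1.0 for Uevld, −0.98 for Shmt2 and −0.93 for Mrtfb.

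Single mice stood apart from their group by the gap to their nearest neighbour in 2 cases, which chance gives in about 1 of 20 groups. The number of groups looked at is not given here, so the 2 cases cannot be set against that rate. Slain1os had 12.6 CPM in cumulus cells of mouse 2mo34, the highest of the 5 mice with hyperovulation. The spread between complexes in oocytes was lowest in mouse 2moNoH6, at 0.144 (mean SD on the log2 scale).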

How the results depend on the processing

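The count of 61 genes in the interaction was 117 without the mouse as a block (no pairing of the cell types), with 46 of the 61 kept, 1268 with libraries as units, 203 with DESeq2, 133 with no filter on low counts, 155 with cell type by plate, 9 on plate B1 alone and 9 on plate B2 alone. DESeq2 kept 60 of the 61, libraries as units 61 and limma on differences per mouse 31. Libraries of the same mouse are not replicates of a condition, so results with libraries as units are no check on the calls. Without 1 mouse the count ran from 16 to 113: 37 without 2mo1, 27 without 2mo2, 16 without 2mo34, 35 without 2mo36, 113 without 2moNoH7 and 1 fewer without 2moNoH6, and 13 genes were kept without each mouse in turn. In each of these all 61, which were selected on these same mice, had the same sign. The count of 206 in cumulus cells was 625 with plate and 2920 with libraries as units, and from 60 to 329 without 1 mouse: 96 without 2mo1, 60 without 2mo2, 71 without 2mo34, 84 without 2mo36, 329 without 2moNoH7 and 132 without 2moNoH13. In oocytes edgeR called 6 genes with libraries as units and, without 1 mouse, from 0 to 1 (1 without 2mo1). The size of the change ranged from 0.198 to 0.243 without 1 mouse, and its exact p rose to 0.0606 without 2mo1, 0.0646 without 2mo2, 0.0848 without 2mo34, 0.0566 without 2mo36 and 0.0707 without 2moNoH8. The difference in component scores ranged from 16.1 to 24.9 for PC1 and from 9.6 to 17.5 for PC3 without 1 mouse, passing after adjustment without 2moNoH6 (24.9 and 12.9), 2moNoH7 (23.5, PC1) and 2moNoH8 (17.5, PC3). The spread between complexes ranged from 0.0444 to 0.0664, passing without 2mo36 (0.0664), 2moNoH6 (0.0659) or 2moNoH10 (0.0653). The direction turned only for named genes that were not called: Rgs2 (−0.0357 with plate, −0.0448 on B1, −0.0153 on B2, −0.0591 to 0.185 without 1 mouse), Prlr (−0.0506 without the block, −0.0241 with TMM over both cell types, −0.0444 with plate, −0.34 on B2, −0.118 to 0.225 without 1 mouse), on B2 Egfr (0.0629), Bmpr2 (0.172) and Ern1 (−0.0164), and on B1 Mcm5 (0.0348) and Rpl4 (−0.00329). The cause of these shifts was not tested. Limma on differences gave 44 genes in the interaction, size factors by RLE 60, filterByExpr 62, TMM over both cell types 70, shared genes alone 71 and thinned oocytes 80. eCG and CARD HyperOva cannot be told apart here.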

Other observations

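The other genes called in the interaction, chosen here after their values were seen, also differed in cumulus cells. Ntn4, a netrin of basement membranes, was at most 1.83 CPM in cumulus cells of the 5 mice with hyperovulation and between 3.84 and 15.2 CPM in the 8 without it, with 0.685 to 1.88 CPM in oocytes. Lama1, a laminin chain, had a median of 2080 CPM in cumulus cells without hyperovulation (907 to 4320) and 897 to 1450 CPM with it, so the groups overlapped, and 9.88 to 22.8 CPM in oocytes. Tcf7l2, a transcription factor of Wnt signalling, measured 43.0 to 75.1 CPM with and 87.1 to 187 CPM without hyperovulation in cumulus cells, and Gadd45a, a stress-induced gene of growth arrest, 8.17 to 11 CPM and 13 to 56.8 CPM. Trib2, a pseudokinase, went the other way, from 230 to 351 CPM with and 119 to 242 CPM without hyperovulation.

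Some called genes were higher in oocytes than in cumulus cells. Mcph1, a regulator of chromosome condensation, stood at 51.6 to 66 CPM in cumulus cells with hyperovulation and 32.9 to 40.5 CPM without it, with 167 to 194 CPM in oocytes, and its interaction of −0.68 was the smallest in size of those called among shared genes. Lpcat4, a lysophospholipid acyltransferase, stood at 5.73 to 8.79 CPM and 11.7 to 17.5 CPM in cumulus cells, and at 64.9 to 81.9 CPM in oocytes over both conditions. Diras2, a small GTPase, was between 0.261 and 5.17 CPM in cumulus cells with hyperovulation and at most 0.305 CPM without it, against 127 to 155 CPM in oocytes, so its interaction rests on very few cumulus counts.

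The spread between complexes of a mouse, a measure chosen after seeing the data (mean SD of log2 CPM over 2047 shared genes at 50 CPM or more), was 0.287 ± 0.043 (SD, n = 5 mice) with and 0.335 ± 0.062 (SD, n = 8) without hyperovulation in cumulus cells, and 0.175 ± 0.027 and 0.165 ± 0.0091 in oocytes. The difference in cumulus cells minus that in oocytes was 0.0571 (two-sided exact permutation p = 0.0676, and 0.0571 within plates).

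Promoters from RefSeq (GRCm38.p6, 250 bases before to 50 after each start) were found for 22 of the 27 shared genes called. The letters TGACGTCA, a cyclic AMP response element, were in 0 of their 29 promoters and in 3.39% of the promoters of all shared genes (1.79% of all promoters). AGGTCA, a nuclear receptor core element, was on either strand of 17.2% of them, against 11.7% for all shared genes and 16.3% of all promoters, in those of Bcl2l1, Frmd5, Mrtfb, Susd3 and Chchd10.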
